A study of Equus caballus with 12 samples.

Results

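Horse oocytes that were vitrified while immature, warmed and then matured in vitro (VIM) were compared with fresh oocytes matured in vitro (FR). The comparison was limited to genes that every library of both groups measured well, which meant a normalized count of at least 10 in each of the 4 VIM and 5 FR samples. This left 1206 of the 11425 genes in the table, or 10.6%, and each was also among the 7351 genes tested. VIM oocytes were vitrified with their corona radiata, the innermost layer of cumulus cells, before maturation, whereas FR oocytes were never cooled. Both groups were then stripped of their surrounding cells, and only oocytes with a polar body and an intact membrane were frozen for RNA extraction. The study reported a lower maturation rate and a lower final efficiency for VIM than for FR. The VIM pools thus held a smaller selected part of their starting oocytes. Each sample was a pool of 23 oocytes on average, from slaughterhouse ovaries, and the number of mares per pool is not given. The value of a pool cannot separate fewer oocytes with a transcript from less transcript per oocyte. The labels do not say whether the pools of a group came from separate collections, so p-values measure only the spread between these pools. In the remaining group of the study (VMAT, 3 samples), oocytes were vitrified after maturation, and its values are given only beside a few genes.

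A fully grown oocyte makes almost no new RNA. It lives on messenger RNA stored during growth, which is kept silent, polyadenylated for use or degraded as meiosis resumes, and which has to last until the embryo switches on its own genome. The libraries were read at the 3′ end of messages, so the state of the poly(A) tail as well as the amount of a message can enter a value. Vitrification replaces much of the cell's water with cryoprotectants and cools it into a glass without ice. At the immature stage the chromosomes are still enclosed in the germinal vesicle and no meiotic spindle has formed, so an oocyte vitrified then has to build its spindle after warming.

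The well measured genes held most of the RNA that was sequenced. They took 70.1% to 74.3% of the reads on genes in VIM and 70.8% to 74.7% in FR, with means of 72.7% ± 1.91 (SD, n = 4) and 72.5% ± 1.89 (SD, n = 5) that did not differ beyond the spread between samples (exact two-sided permutation test, p = 0.825, where the smallest possible p was 0.00794). Reads on genes ran from 2123138 to 3930366 per VIM sample and from 2740837 to 4715119 per FR sample, and neither this number nor the number of genes detected differed beyond that spread (exact permutation p = 0.214 and 0.230, both 0.345 after Benjamini-Hochberg adjustment over the 3 measures). Even among these genes, single libraries were often far from the rest. VIM replicate 3 held 99 of the genes at more than 8-fold below their own median over the 9 samples, FR replicate 2 held 100 and VIM replicate 2, with the fewest reads, held more than either, against 30 to 73 in the other libraries. Values more than 8-fold above the median were found for only 1 to 8 genes per library. The plot of low values against reads shows that the deepest libraries of both groups held the fewest of them.

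**Figure D1:**
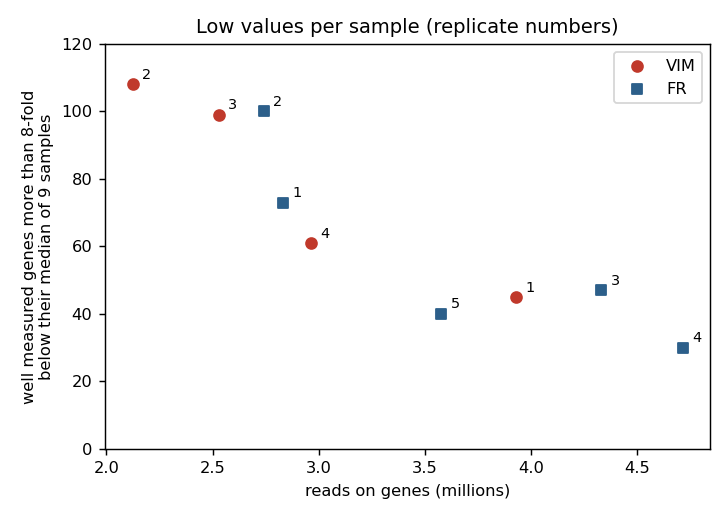
Well measured genes more than 8-fold below their own median over 9 samples (vertical axis, number of genes) against reads on genes (horizontal axis, in units of 1e6), with 1 point per sample, VIM as circles and FR as squares, numbered by replicate. Counts ran from 30 in FR replicate 4, the deepest library, to 99 and above in VIM replicates 2 and 3 and FR replicate 2.

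With limma, a linear model per gene on log2 of the normalized count plus 1, 0 of the 1206 well measured genes were differentially expressed (DE), and 0% of all genes tested were. A DE gene had an adjusted p not above 0.05 and a log2 fold change of 1 or more in size, and the smallest Benjamini-Hochberg adjusted p was 0.902. edgeR, run on whole reads recovered from the normalized counts, also called 0 of them (0% of all genes tested). It gave an unadjusted p under 0.05 to 24 of the 1206 well measured genes, against 1237 of all 7351 genes tested (16.8%). In limma, 49 well measured genes (4.06%) had an unadjusted p under 0.05, close to the 3.78% of all genes tested. Of these, 31 were higher and 18 lower in VIM, where the shares over all genes tested were 2.12% higher and 1.66% lower. This split moved with the scaling: it was 25 higher and 24 lower when all column totals were made equal, 24 and 24 after quantile normalization, and 12 and 12 with edgeR. It also turned when 1 VIM library was left out, to 21 higher and 29 lower without VIM replicate 2 and 16 higher and 19 lower without VIM replicate 3.

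Genes higher in VIM numbered 651 and genes lower in VIM 555. The median size of the log2 fold change, whatever its sign, was 0.49, below the median standard error of 0.89. With the sign, the median log2 fold change was 0.07, the quartiles were -0.41 and 0.54, and the range was -3.96 to 4.21. Over all genes tested the median was -0.12, and over the 6145 tested genes outside the rule it was -0.21. The median of the well measured genes was -0.05 with equal column totals, -0.01 after quantile normalization and -0.01 with edgeR, so its sign depended on the scaling. A log2 fold change of at least 1 in size was estimated for 271 well measured genes (22.5%) against 54.6% of all genes tested. The median SD between samples of a group was 1.11 log2 units, against 2.59. Between the highest and the lowest of the 9 samples, the median well measured gene spanned 11.2-fold, against 161-fold over all genes tested. These 3 differences are a description, since the rule removed every gene that was close to 0 in any sample.

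Within the well measured genes, fold changes narrowed with the level, as the plot of fold change against level shows. The genes were split into 3 sets of 402 by their mean log2 value. In the lowest set, with levels of 24.1 to 421 normalized counts, the median SD within groups was 1.75 log2 units and 145 genes had an estimated log2 fold change of at least 1 in size. In the highest set, with levels of 1058 to 65527, the SD was 0.71 and 33 genes did. An unadjusted p under 0.05 was reached by 18 genes of the lowest set (9 higher and 9 lower in VIM), 13 of the middle set (6 and 7) and 18 of the highest set (16 and 2). These were 4.48%, 3.23% and 4.48% of the sets, near the 3.78% of all genes tested. The splits by direction are given for the main scaling only, and the split over all well measured genes moved with the scaling. Between samples, the Pearson correlation of log2 values across these genes, which are not independent replicates, was 0.454 to 0.552 for the 6 pairs of VIM samples, 0.444 to 0.652 for the 10 pairs of FR samples and 0.477 to 0.653 for the 20 pairs of a VIM with an FR sample. Samples of the same group were thus about as far from each other as from samples of the other group.

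**Figure D2:**
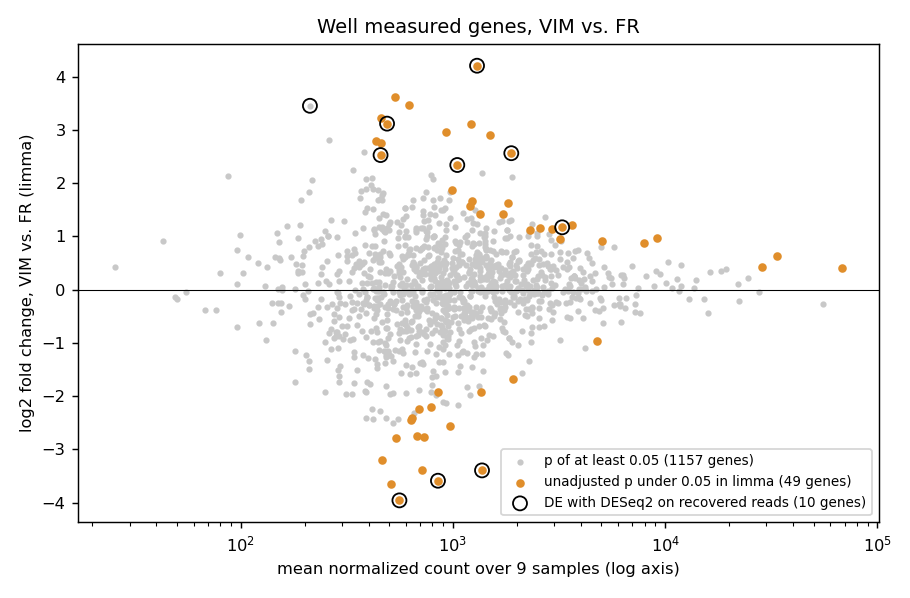
Log2 fold change of VIM over FR (limma, vertical axis) against the mean normalized count over 9 samples (horizontal log axis) for the 1206 well measured genes, 1 point each. Orange points are the 49 genes at an unadjusted p under 0.05 and open circles the 10 genes that DESeq2 called on the recovered reads. Fold changes beyond 2 log2 units lay away from the right end of the plot, and the most abundant genes lay close to 0.

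Among genes higher in VIM, the smallest p values belonged to ENSECAG00000017058 and ENSECAG00000022422, which have no name in the tables used, then to the proteasome subunit gene PSMA7, to RBPJ, the DNA-binding effector of Notch signalling, and to PTGES3, which encodes the HSP90 co-chaperone p23. RBPJ had normalized counts of 2211, 5359, 2459.5 and 3011 in VIM and of 484, 1509.9, 59.3, 781 and 1074 in FR. Every VIM sample was thus above every FR sample, with a log2 fold change of 2.56 (standard error 0.81). For PTGES3 the counts were 1559, 2841, 1416 and 1559 in VIM and 799.99, 181, 548, 187 and 343 in FR, with a log2 fold change of 2.34 (standard error 0.79). The groups did not overlap here either, and VIM replicate 2 stood above the other VIM samples. ENSECAG00000017058 was at 2017, 3532, 3950.2 and 529 in VIM and at 65.8, 26.3, 701, 853 and 11.5 in FR, a log2 fold change of 4.21 (standard error 1.24) that was the largest of all well measured genes in this direction. VIM replicate 4 lay below FR replicates 3 and 4, so the groups overlapped.

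PSMA7, an α subunit of the 20S proteasome core, was among the most abundant transcripts, and its difference was small. Its normalized counts were 32986, 44260.5, 57027 and 33905 in VIM and 30708, 18231, 36316, 24206 and 25536 in FR, a log2 fold change of 0.64 (standard error 0.20), and the groups overlapped by 1 FR sample. ENSECAG00000022422, with 9236, 14015, 10855 and 15898 in VIM and 7747, 4788, 5826, 8262 and 5312 in FR, did not overlap and had a log2 fold change of 0.97 (standard error 0.29). CETN3, a centrin of the centrosome, was at 552, 1131, 1130.3 and 819 in VIM and at 62.5, 13.7, 324, 156 and 214 in FR, again without overlap, with a log2 fold change of 3.12 (standard error 1.17). HSPA2, a member of the HSP70 family known from meiotic germ cells, was at 1481, 851, 776 and 536 in VIM and at 12.9, 724, 372, 32.3 and 11.5 in FR. Its log2 fold change of 3.63 (standard error 1.37) came with 3 FR samples at 32.3 or less, and FR replicate 2 was within the range of VIM. Another gene without a name, at 1001 to 2535 in VIM and 13.4 to 1542 in FR, had a log2 fold change of 3.11 (standard error 1.14).

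Among genes lower in VIM, the smallest p belonged to BNIP3L, which encodes a mitophagy receptor of the outer mitochondrial membrane. Its normalized counts were 635, 86.4, 19.3 and 92.9 in VIM and 1523, 1498, 433, 1362 and 1998 in FR, a log2 fold change of -3.59 (standard error 1.06). VIM replicate 1 was above FR replicate 3, and all other VIM samples were below every FR sample. RHBDF2, an inactive rhomboid protein that escorts the protease ADAM17, was at 17.2, 389.6, 20.5 and 73.3 in VIM and at 1424, 849, 878, 580.2 and 341 in FR, with a log2 fold change of -3.66 (standard error 1.21) and overlap at VIM replicate 2. IQGAP1, a scaffold of the actin cytoskeleton, was at 16.6, 19.6, 664 and 189 in VIM and at 2379, 526, 1402, 936 and 289 in FR, a log2 fold change of -3.39 (standard error 1.22). VIM replicate 3 lay within the FR range for this gene. ACP1, a low molecular weight tyrosine phosphatase, was at 182, 13.04, 31.3 and 254 in VIM and at 441, 238, 834, 826 and 1331 in FR, with a log2 fold change of -3.21 (standard error 1.23) and only VIM replicate 4 above an FR sample.

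In several of these genes 1 VIM library was close to the fresh level and the others far below it. SCAPER, named for a cyclin A-associated protein of the endoplasmic reticulum, was at 901, 73.3, 155 and 38.1 in VIM and 1201, 1256, 863, 851 and 742 in FR, a log2 fold change of -2.76 (standard error 1.02). RAB18, a small GTPase of the endoplasmic reticulum and lipid droplets, was at 600.4, 507, 85.6 and 17.6 in VIM and 642, 741, 1309, 1303 and 1346 in FR. Its VIM samples were all below its FR samples, although VIM replicates 1 and 2 were close to the lowest of them, with a log2 fold change of -2.77 (standard error 1.06). Among the genes without a name, ENSECAG00000039653 was at 26.4, 241, 25.3 and 14.7 in VIM and 1200.0, 1980.0, 81.7, 895 and 571 in FR, with a log2 fold change of -3.96 (standard error 1.34). ENSECAG00000017318 was at 295, 17.9, 164 and 323 in VIM and 3464, 3808, 92.9, 1572 and 2599 in FR, with a log2 fold change of -3.39 (standard error 1.15). It was the only 1 of the 15 genes named in the study's text that passed the rule, and the study selected it on these same samples. Some of the other genes were named there for comparisons with VMAT. In both ENSECAG00000039653 and ENSECAG00000017318, FR replicate 3 was far below the other fresh samples and inside the VIM range. The plot of the 16 genes shows how often a single pool crossed over.

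**Figure D3:**
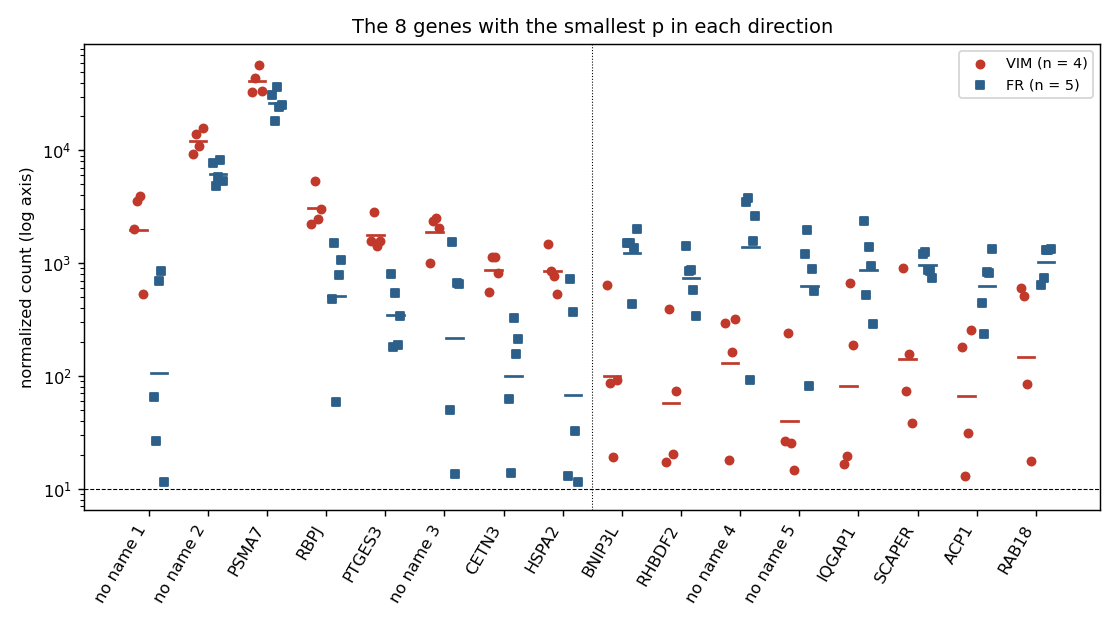
Normalized counts (vertical log axis) of the 8 genes with the smallest limma p among those higher in VIM (left of the dotted line) and the 8 among those lower in VIM (right), with 1 point per sample, VIM as circles and FR as squares. Bars are means of log2 values turned back into counts, and the dashed line is the minimum of 10 that the rule sets. Genes without a name in the files are numbered. VIM and FR points overlap in 11 of the 16 genes.

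In VMAT, the vitrified group that was matured first, the levels of 5 of these genes are given, chosen after their values were seen. RBPJ had normalized counts of 3762, 1164 and 722 in VMAT, PTGES3 of 469.9, 969 and 3469 and CETN3 of 21.8, 459 and 1404. RAB18 was at 1808, 812 and 749.9 and BNIP3L at 355, 575 and 55.4. For PTGES3 and for CETN3, 1 VMAT sample lay in the FR range, 1 between the groups and 1 above every VIM sample. No test of VMAT was made here.

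VIM and FR samples did not overlap in 21 well measured genes (1.74%), against 1.59% of all genes tested. In 17 of them VIM was above FR, where the share over all genes tested was 0.952%, and in 4 VIM was below FR, against 0.639%. Apart from the genes above, those with a name were MACO1 (macoilin), PAX6, NLRP13, REV1 (a translesion DNA polymerase), PHF13 and WTAP (a subunit of the RNA m6A methylation complex) with VIM above FR, and CSNK2B (the regulatory subunit of casein kinase CK2), NELFA (a subunit of the negative elongation factor) and KIAA0586 with VIM below FR. These were named because they did not overlap, so their separation is a description. The log2 fold change was 1.42 for PAX6 and 0.80 for WTAP, and it was -2.23 for CSNK2B, -1.57 for NELFA and -1.21 for KIAA0586. WTAP ran from 189 to 425 in VIM and from 116 to 171 in FR. In limma, which moderates the spread of each gene toward that of genes at its level, its p was 0.501.

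DESeq2 on the recovered reads, the tool used in the study, called 10 of the 1206 well measured genes, against 6.91% of all genes tested. Higher in VIM were 7 of them (2.38% over all genes tested): SIAH2, an E3 ubiquitin ligase, RBPJ, PTGES3, CETN3, MACO1 and 2 genes without a name. BNIP3L, ENSECAG00000017318 and ENSECAG00000039653 were lower in VIM (4.53% over all genes tested). The largest DESeq2 log2 fold change was that of SIAH2, 4.15 with an adjusted p of 0.0109. Its normalized counts were 480.0, 805, 483 and 13.7 in VIM and 10.8, 11.4, 36.9, 12.1 and 53.7 in FR, so that VIM replicate 4 was at the level of fresh oocytes. With DESeq2, the log2 fold change was 2.05 for RBPJ (adjusted p = 0.0235), 2.16 for PTGES3 (adjusted p = 0.00943) and -2.74 for BNIP3L (adjusted p = 0.0178). With any single sample left out, an alternative chosen after seeing the data, DESeq2 called 1 to 4 well measured genes, of which 1 to 3 were among the 10. It called 3 without VIM replicate 1, 4 without VIM replicate 2, 2 without VIM replicate 3 or 4, 4 without FR replicate 3 and 1 without each other FR replicate. SIAH2 was called in 8 of these 9 fits and was lost without VIM replicate 2, ENSECAG00000039653 was called in 2, BNIP3L and ENSECAG00000017318 in 1 each, and the other 6 in none. Of the 508 genes that DESeq2 called among all tested, 498 were under 10 in at least 1 of the 9 samples, 296 were under 10 in all VIM samples and 138 in all FR samples. The study, with the same tool and thresholds, reported far fewer DE genes for VIM vs. FR. The run on recovered reads thus did not reproduce its number, and the reason was not tested.

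For the most abundant transcripts, the limma intervals were narrow. They rest in part on limma drawing the spread of each gene toward that of genes at its level. The 95% confidence interval of the log2 fold change lay within a 2-fold change in either direction for 43 well measured genes (3.57%), against 0.585% of all genes tested, and these 43 genes were all in the highest set by level. CAST, which encodes the calpain inhibitor calpastatin, averaged 33529.9 ± 7399.5 normalized counts (SD) over the 4 VIM samples and 24636 ± 3442 over the 5 FR samples, with a log2 fold change of 0.43 and an interval of 0.07 to 0.79. PARP12, a mono-ADP-ribosyltransferase, was the most abundant of all, at 79622 ± 22116 and 59424 ± 17494, and had a log2 fold change of 0.41 (0.04 to 0.79). The mitotic and meiotic spindle kinase gene AURKA, at 26545 ± 6501 in VIM and 28625 ± 12334 in FR, had one of -0.04 (-0.55 to 0.47). DPPA3, a maternal factor that guards DNA methylation in the zygote, was at 7569 ± 1119.8 and 7392 ± 1111, with one of 0.03 (-0.56 to 0.62). The translation initiation factor EIF5B had an interval of -0.16 to 0.95, HPF1, a cofactor of PARP1, one of -0.07 to 0.78, and RTF1, of the transcription elongation machinery, one of -0.46 to 0.72. For these genes a change of more than 2-fold was outside the limma interval, and smaller changes that lay inside the interval of a gene were not excluded. Of the 20 narrowest of these intervals, which the plot of intervals shows, those of CAST and PARP12 did not hold 0. This depended on the tool. For PARP12 the standard error was 0.18 in limma and 0.28 in DESeq2, where its unadjusted p was 0.143. The unadjusted DESeq2 p of CAST was 0.0661. PSMA7, whose interval of 0.24 to 1.05 crossed the 2-fold limit, was not one of the 43.

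**Figure D4:**
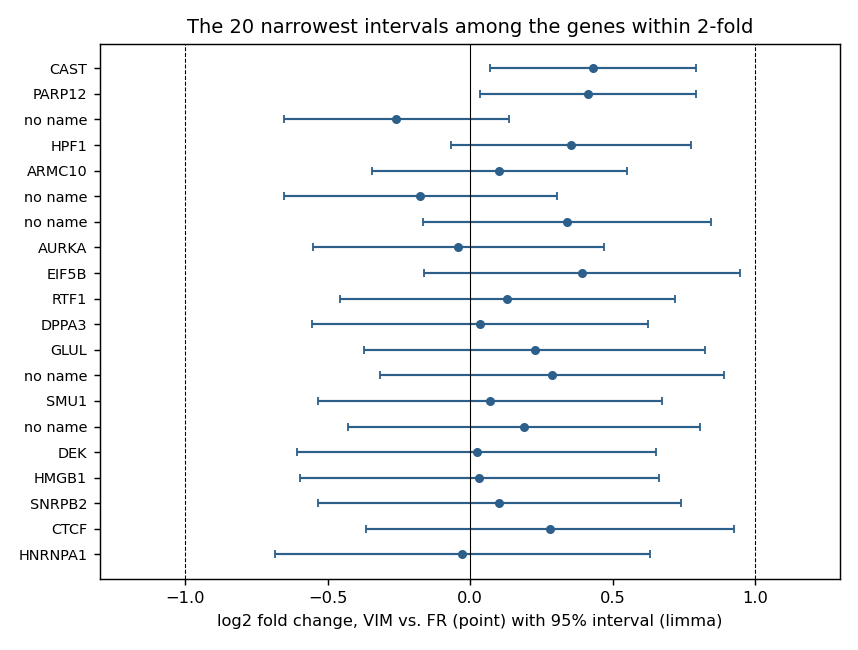
Log2 fold change of VIM over FR (points, limma) with its 95% confidence interval (bars) for the 20 narrowest intervals among the 43 well measured genes whose interval lies within a 2-fold change, ordered from the narrowest at the top. Dashed lines mark a 2-fold change in either direction, and genes without a name in the files are marked as such. All lie inside the dashed lines because they were chosen so, and of these 20 the intervals of CAST and PARP12 exclude 0.

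The other well measured genes were grouped by what they do. A name could be given to 970 of the 1206 genes, and this was not even between directions: 467 of the 651 genes higher in VIM (71.7%) and 503 of the 555 lower in VIM (90.6%) had one. The supplementary sheets that gave the names had been shortened after sorting by fold change, so having a name was not independent of the fold change. The median log2 fold change was -0.03 for genes with a name and 0.56 for the 236 without one. This gap cannot be read as a trait of genes without a name. List medians compare with -0.03, and many genes of each list could not be found by name. Of 25 lists, 21 had at least 3 well measured genes. With limma, 0 genes of any list were DE, and the smallest adjusted p was 0.902. List medians were small, and in 8 of the 21 lists the median changed sign with the scaling or the tool. With equal column totals or quantile normalization this was so for 5 (actin, MAPK, ubiquitin, chromatin and lipid metabolism), and for 3 (ribosomal proteins, mitochondrial import and mRNA storage) only with edgeR. The plot of the lists shows fold changes on both sides of 0 in 20 of the 21 lists.

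**Figure D5:**
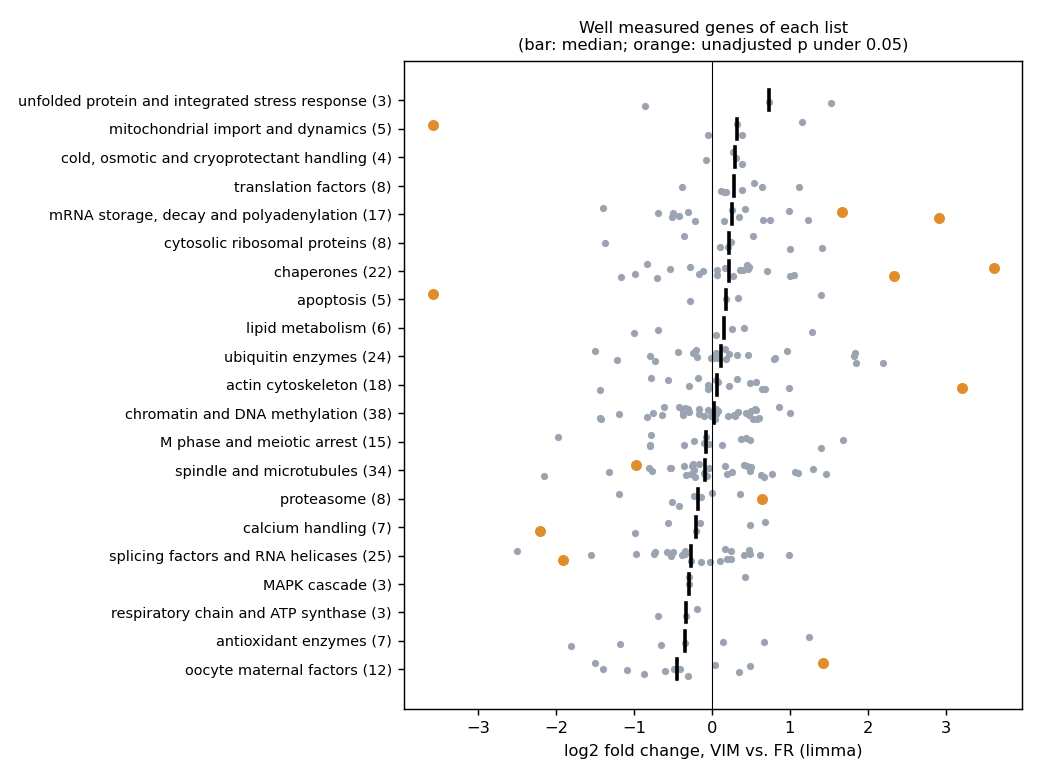
Log2 fold change of VIM over FR (limma, horizontal axis) of the well measured genes of 21 lists, with 1 point per gene, the number of genes in parentheses and a black bar at the list median. Orange points are genes at an unadjusted p under 0.05. Medians ran from -0.45 for oocyte maternal factors to 0.74 for the unfolded protein response, which had 3 genes.

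Of 54 oocyte maternal factors, 12 were well measured, 4 higher and 8 lower in VIM, with a median log2 fold change of -0.45. NLRP13, of the NLRP family to which maternal effect genes belong, was the single one at an unadjusted p under 0.05. It was at 1661, 2036, 2575 and 1795 in VIM and 595, 444, 1058, 1199 and 671 in FR, without overlap, with a log2 fold change of 1.42 (standard error 0.64). The oocyte-secreted growth factor genes BMP15 and GDF9 had log2 fold changes of -1.51 and -0.49, the zona pellucida gene ZP4 one of -0.88, the oocyte linker histone H1-8 one of -0.60 and the translational regulator CPEB1 one of -1.40. None of these reached an unadjusted p under 0.05. The identity of the cells was checked with 12 marker genes, of which 8 could be found by name and 5 (GDF9, BMP15, ZP4, KPNA7 and H1-8) were well measured. The summed level of the 8 was 1024 to 2464 counts per 1e6 reads (CPM) in VIM and 1536 to 2572 in FR.

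The M phase and meiotic arrest list had 15 of 72 genes well measured, 6 higher and 9 lower in VIM, with a median of -0.08 and 0 at an unadjusted p under 0.05. The M phase phosphatase CDC25C had the smallest p, at 546, 1689, 45.8 and 70.4 in VIM and 755, 1823, 955, 1075 and 493 in FR, with a log2 fold change of -1.98 (standard error 1.04). The groups overlapped. Of the cyclin B genes, CCNB1 had a log2 fold change of 0.37 and CCNB2 of 1.68, and the shugoshins SGO1 and SGO2, which protect centromeric cohesion, had -0.80 and -0.78. Of 131 spindle and microtubule genes, 34 were well measured, 14 higher and 20 lower, with a median of -0.09. PRC1, which bundles the microtubules of the central spindle, was the only one of them at an unadjusted p under 0.05, at 2966, 969.8, 6522 and 3549 in VIM and 5382, 3198, 7593, 6490.5 and 6508 in FR, a log2 fold change of -0.97 (standard error 0.47). KIF20B, a kinesin and the most abundant gene of the list, had a log2 fold change of -0.27 (standard error 0.46), and the spindle factors TPX2, NDC80 and ASPM lay between -0.17 and -0.09.

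Of 81 actin genes, 18 were well measured, 10 higher and 8 lower, with a median of 0.07. RHOA, the GTPase that drives actomyosin contraction, reached an unadjusted p under 0.05, at 613, 611, 1505 and 301 in VIM and 19.4, 11.4, 612, 438 and 22.2 in FR, with a log2 fold change of 3.22 (standard error 1.41) and overlapping groups. The actin monomer-binding gene TMSB4X, the most abundant of the list, had 0.49 (standard error 0.38), and CDC42 had 0.22. Of 69 calcium genes, 7 were well measured, 2 higher and 5 lower, with a median of -0.20. PPP3R1, the regulatory subunit of the calcium-dependent phosphatase calcineurin, was at 126.5, 1377, 78.3 and 174 in VIM and 1104, 1008, 1279, 1335 and 602 in FR, with a log2 fold change of -2.21 (standard error 0.94) and an unadjusted p of 0.0281 (limma), and VIM replicate 2 was above every FR sample while the other VIM samples were below them. Its catalytic partner PPP3CA had a log2 fold change of -0.57, and the calmodulin gene CALM2 had -0.20 (standard error 0.33). Of 77 genes of the MAPK cascade, 3 were well measured, with log2 fold changes of -0.30 for DUSP1, -0.29 for LAMTOR5 and 0.42 for TAOK3.

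Of 84 chaperone genes, 22 were well measured, 14 higher and 8 lower in VIM, with a median of 0.21, and PTGES3 and HSPA2 were the ones at an unadjusted p under 0.05. The HSP90 genes HSP90AA1 and HSP90AB1 had log2 fold changes of -0.16 and -0.28, the constitutive HSP70 gene HSPA8 one of 0.40 and the chaperonin subunit CCT2 one of 1.05. The unfolded protein response was covered by ATF6B (1.52), SELENOS (0.74) and SDF2L1 (-0.87), 3 of 36 genes. Of 58 antioxidant genes, 7 were well measured, 3 higher and 4 lower, with a median of -0.34. The peroxiredoxin PRDX2 had the smallest p of these, at 3067, 3604, 4397 and 1886 in VIM and 854, 409, 3350.1, 1643 and 1988 in FR, a log2 fold change of 1.24 (standard error 0.61), while superoxide dismutase SOD1 had -0.34 and the stress regulator NFE2L2 had 0.67. Of 35 genes for cold, osmotic and cryoprotectant handling, 4 were well measured, 3 higher and 1 lower, and among them log2 fold changes were 0.39 for ATP1B1, 0.31 for the volume-regulated channel subunit LRRC8A and 0.27 for the kinase WNK1.

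Few nuclear genes for mitochondrial proteins were both found by name and well measured. Not found by name were 71 of 95 genes of the respiratory chain and ATP synthase and 46 of 59 genes of mitochondrial import and dynamics. How many of those were well measured is thus not known. The respiratory chain and ATP synthase had 3 of 95 genes, all lower in VIM, with log2 fold changes of -0.69 for NDUFB1, -0.33 for COX8A and -0.20 for COX6A1 and no unadjusted p under 0.05. COX6A1 was higher in VIM without VIM replicate 1, FR replicate 1, FR replicate 3 or FR replicate 5. Mitochondrial import and dynamics had 5 of 59 genes, with BNIP3L at -3.59, the presequence motor gene TIMM44 at -0.05, the import receptor TOMM20 at 0.32, the inner membrane protease OMA1 at 0.39 and POLG2 at 1.16. BNIP3L was also on the apoptosis list, where 5 of 66 genes were well measured and the inhibitors XIAP and BIRC5 had 0.18 and 1.40. In lipid metabolism, with 6 of 64 genes, the lipid droplet coat gene PLIN2 had a log2 fold change of 0.05, the fatty acid binding gene FABP5 one of 1.29 and the acyl-CoA synthetase ACSL3 one of -0.69, with 0 genes at an unadjusted p under 0.05.

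Genes that store, process and translate messenger RNA lay on both sides. Of 125 genes of mRNA storage, decay and polyadenylation, 17 were well measured, 10 higher and 7 lower, with a median of 0.26. EIF4ENIF1, which holds silent messages in oocyte ribonucleoprotein particles, was at 2374, 2866, 2837 and 813 in VIM and 18.3, 18.3, 1199, 1638 and 1762 in FR, with a log2 fold change of 2.91 (standard error 1.24) and an unadjusted p of 0.0277 (limma), with 3 FR samples inside the VIM range, and UPF3B of nonsense-mediated decay was the other gene under 0.05, at 1.67. The deadenylation adaptor BTG4, needed for maternal mRNA clearance, had -0.30 (standard error 0.37). Of 51 translation factors, 8 were well measured, 7 higher and 1 lower, with a median of 0.28, and of 82 cytosolic ribosomal protein genes 8 were, 6 higher and 2 lower, with a median of 0.22. No gene of these groups reached an unadjusted p under 0.05. Splicing factors and RNA helicases had 25 of 112 genes, 10 higher and 15 lower, with a median of -0.27. Of these, the U2 snRNP subunit gene SF3B1 was under 0.05, at 789, 66.8, 394 and 383 in VIM and 1926, 1144, 801, 725 and 1452 in FR, a log2 fold change of -1.92 (standard error 0.87) with overlapping groups.

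Chromatin and DNA methylation had the most well measured members, 38 identifiers from a list of 128 genes (H3-3B had 2 identifiers), 20 higher and 18 lower, a median of 0.02 and 0 genes at an unadjusted p under 0.05. The DNA methyltransferases DNMT1 and DNMT3A had log2 fold changes of -0.05 and 0.58, UHRF1, which recruits DNMT1, had -0.37, and the dioxygenase TET3, which oxidises methylcytosine in the zygote, had -0.16. The histone methyltransferase KMT2C had the smallest p of the list, with -1.44 (standard error 0.75), and the remodeller SMARCA5 was the most abundant, with -0.43 (standard error 0.31). Of 50 proteasome genes, 8 were well measured, 3 higher and 5 lower, with a median of -0.18, so PSMA7 (0.64) stood among subunits such as PSMA2 (-1.20), PSMA5 (0.00) and PSMD12 (0.37). Of 94 ubiquitin enzyme genes, 24 were well measured, 15 higher and 9 lower, with a median of 0.12 and 0 under 0.05. SAE1, of the SUMO-activating enzyme, had the smallest p of these, with a log2 fold change of 1.84, and the E3 ligase ITCH and the cullin CUL1 had 1.85 and 1.82.

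Traces of the surrounding cells were followed with 17 cumulus, corona and granulosa markers, of which HAS2, the hyaluronan synthase of expanding cumulus, could be found by name. Its normalized count was 641 to 2144 in VIM and 462 to 1239 in FR, or 185 to 703 and 180 to 395 CPM, with a log2 fold change of 0.59 (standard error 0.72). Of 8 blood and immune markers and 6 stroma and theca markers, 0 were found by name. The part of remaining cells in any difference was not tested. At the edge of the rule, the lowest value of WBP4 was 10.0 in FR replicate 5, against a median of 664 over the 9 samples, and it was kept, whereas EXOC5 was left out for 9.78 in VIM replicate 2, against a median of 653. With a minimum of 5 in all 9 samples there were 1554 genes, 73 of them at an unadjusted p under 0.05 and 13 called by DESeq2, and with a minimum of 20 there were 985, 30 and 4. Another 5938 genes had a mean of at least 10 over the 9 samples but were under 10 in at least 1 of them. A gene that was nearly absent from 1 group was thus removed by the rule, whatever its level in the other group.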

How the data were processed

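Pools of horse oocytes were profiled with a 3′ RNA sequencing kit with unique molecular identifiers. According to the methods and labels, the authors trimmed reads with Trim Galore, mapped them with STAR to EquCab3.0 (Ensembl 108), processed identifiers with UMI-tools, counted with RSEM and removed 1 VMAT sample. The signal values that the authors deposited are counts divided by DESeq2 size factors. All were whole multiples of 1 step per sample (100.0% within 0.001 of a whole number), so reads were recovered, and 3 reads equalled 1.51 to 4.89 normalized counts in these samples. This floor covers counting error only. A total of 0 sample columns was left unused.

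VIM (labelled VGV) and FR samples were compared with limma 3.58.1 in R 4.3.3 (eBayes with trend) on log2(normalized count + 1), which understates changes of low genes. Genes above 0 in at least 4 of the 9 samples were tested, with Benjamini-Hochberg adjustment over all 7351. edgeR 4.0.16 and DESeq2 1.42.0 on recovered reads were alternatives, beside other pseudocounts, filters, scalings, covariates, the replicate block and leaving out each sample. Scripts were tested on simulated data. Summaries used Python 3.11.15.

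Members, rule and lists were chosen with earlier results of these data known. Named were the 8 smallest p values in each direction, each list's smallest-p and most abundant gene, and the gene the study names, except 1 gene that is not reported here. Others (further list members, genes without overlap, DESeq2 calls, narrow intervals) were named after their values were seen. Names came from the study's supplementary tables, which paired 2569 identifiers with one. Gene positions and sequences were not analysed here.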

Additional observations from a re-analysis of the deposited data

Results flagged for a closer look

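For the genes named by the rule, the DESeq2 calls, the genes with the narrowest intervals or most reads and the measures of depth, Dixon's test at the 95% level was applied to each group of 4 or 5 samples. It asks whether the highest or lowest sample is far from its neighbour relative to the whole range. The test used the values themselves and not their log2. Of 128 groups, 11 held such a sample. Chance gives about 1 in 20, or 6.4, only for normally distributed values, which was not checked here. The 11 are thus a list of samples to look at and do not measure an excess. Many of these genes had been named for their small p values or narrow intervals. BNIP3L was at 635 in VIM replicate 1 and at 19.3 to 92.9 in the other VIM samples. SCAPER was at 901 in VIM replicate 1 and at 38.1 to 155 in the others. In VIM replicate 2, PTGES3 was at 2841 (others 1416 to 1559), RHBDF2 at 389.6 (others 17.2 to 73.3), ENSECAG00000039653 at 241 (others 14.7 to 26.4), PPP3R1 at 1377 (others 78.3 to 174) and CAST at 44534 (others 28836 to 31154). In FR replicate 2, DPPA3 was at 9314 (others 6463 to 7163), EIF5B at 33308 (others 10605 to 17118) and HPF1 at 12652 (others 16541 to 18079.5). PARP12 was at 89513 in FR replicate 1 and at 44387 to 56844 in the other FR samples. The cause was not tested.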

How the results depend on the processing

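The number of well measured genes past both thresholds was 0 with every alternative fitted by limma or edgeR, including each fit without 1 sample (0 to 0), and 10 with DESeq2, whose calls without each sample numbered 1 to 4. At an unadjusted p under 0.05 there were 49 genes, 24 with eBayes without trend, 24 with edgeR, 30 with a minimum of 20 in all 9 samples, 273 when members were taken by a mean of at least 10 (6414 genes), and 35 to 69 without 1 sample. The median log2 fold change stayed between 0.03 and 0.18 without 1 sample, and it was -0.07 with genes detected as a covariate. With only genes of a mean of at least 10 in the fit, PSMA7 and PARP12 had a limma adjusted p of 0.000609. Their log2 fold changes of 0.64 and 0.41 stayed under the fold threshold. The unadjusted limma p of PSMA7 was 0.00332 in the main fit and 0.410 with eBayes without trend. Its limma p thus depended on how the spread of each gene was drawn toward that of other genes.

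Replicate numbers are shared by VIM and FR in the labels but were not used as pairs in the main fit. Deviations of same-numbered samples from their group means had correlations of -0.0230, 0.00848, -0.00992 and 0.0131. Pools of the same group differed strongly, so these values cannot show whether same-numbered pools shared a collection. With the replicate block 34 genes had an unadjusted limma p under 0.05 and 0 passed both thresholds. Of 4 VIM samples, 1 correlated best with the FR sample of its own number.

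For 49 genes named by the rule, 1078 values under 22 alternatives held 38 changes of direction in 9 genes and 7 gains of significance, all with DESeq2. None of the 9 genes was among the 16 with the smallest p. Those 16 were picked on these same samples for changes large against their standard error, so their kept direction is only a description. Without 1 sample, log2 fold changes that changed sign ran from -0.062 to 0.12 for DPPA3, -0.25 to 0.17 for AURKA, -0.60 to 0.11 for KIF20B, -0.44 to 0.10 for CALM2, -0.35 to 0.19 for HSP90AA1, -1.26 to 1.01 for COX6A1, -0.50 to 0.32 for TIMM44, -0.18 to 0.36 for UBE2Q2 and -0.30 to 0.33 for HNRNPA1, and the difference in the share of reads on well measured genes from -0.261 to 1.15 percentage points. DPPA3 was at -0.087 with equal column totals, -0.12 after quantile normalization, -0.011 with the replicate block, -0.047 with the covariate and -0.063 with edgeR, and UBE2Q2 at -0.12, -0.11, -0.039, -0.14 and -0.042 in the same order. COX6A1 was at 0.15 with the block and 0.20 with the covariate, and HNRNPA1 at 0.073 with DESeq2. The causes were not tested.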
